A study of Mus musculus with 4 samples.

Results

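The chemoattractant receptors of neutrophils and monocytes are *Cxcr2*, *Cxcr4*, *Ccr1*, *Ccr2*, *Cx3cr1*, *Fpr1*, *Fpr2*, *C5ar1*, *Ptafr* and *Cmklr1*. They were chosen by name, as the genes of chemokine, formyl peptide, C5a, platelet-activating factor and chemerin receptors. Of these 10 genes, 8 had a probe set that names that gene alone, among 19938 genes measured in all. *Fpr1* and *Fpr2* had none in the gene table used here and have no value.

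Gene expression was measured in *lal-/-* cells and *lal+/+* cells on 2 arrays each. The *lal-/-* mice lack lysosomal acid lipase, which hydrolyzes cholesteryl esters and triglycerides, in all tissues, and the *lal+/+* mice are wild type. All mice were 5 months old and carried an FVB/N background of 10 backcross generations. The cells came from bone marrow and are called Ly6G+ myeloid-derived suppressive cells (MDSCs) after the antibody of their magnetic selection, while the labels describe CD11b+ Gr-1+ cells. The methods give n = 5 for the mice of the RNA isolation, and whether the 2 arrays of a genotype stand for separate mice or for pools is not stated. The p-values therefore rest on the spread between arrays alone, part or all of which may be technical.

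These receptors couple to inhibitory G proteins and steer leukocytes along gradients of their ligands. In the bone marrow, CXCR4 holds granulocytes near stromal cells that make CXCL12, and CXCR2 draws mature neutrophils out through the vessel wall. CCR1, C5aR1, the receptor of platelet-activating factor (PAF) and the formyl peptide receptors act at sites of inflammation, CCR2 brings monocytes out of the marrow, and CX3CR1 marks patrolling monocytes, macrophages and natural killer cells.

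*Lipa*, the disrupted gene, had log2 levels of 7.37 and 7.49 in *lal-/-* cells, against 9.50 and 9.05 in *lal+/+* cells. *Ly6g*, of the selection antigen, read 12.91 and 12.84 in *lal-/-* cells and 10.19 and 9.80 in *lal+/+* cells. *Itgam*, of CD11b, was higher as well (log2 fold change 1.19, limma adjusted p = 6.69e-04). The medians of the deposited columns lay between 6.15 and 6.36, and the columns were quantile normalized before the tests. Calls, higher or lower, needed both a limma adjusted p under 0.05 and a change by a factor of 2 or more. Every one of the 2154 genes with such a change passed the adjusted p, so that the fold alone decided the calls.

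Of the 8 receptors measured, *Ccr1* and *C5ar1* were higher in *lal-/-* MDSCs, *Cx3cr1* was lower, and *Cxcr2*, *Cxcr4*, *Ccr2*, *Ptafr* and *Cmklr1* were not called. Among all genes, 7.56% were called higher and 3.24% lower, or 10.8% in either direction, and counts of 2 and 1 among 8 genes are too small to set apart from these shares. By the adjusted p alone, 4 receptors (*Ccr1*, *C5ar1*, *Ptafr* and *Ccr2*) were higher and *Cx3cr1* was lower, against 19.8% of all genes higher, 9.85% lower and 29.6% in either direction. The median log2 fold change was 0.61 over the 8 receptors and 0.08 over all genes. The *lal-/-* arrays lay above the *lal+/+* arrays for 5 receptors and below them for 2, and the arrays of *Cxcr2* overlapped. Of all genes, 41.6% lay above and 24.1% below in the same way.

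**Figure D1:**
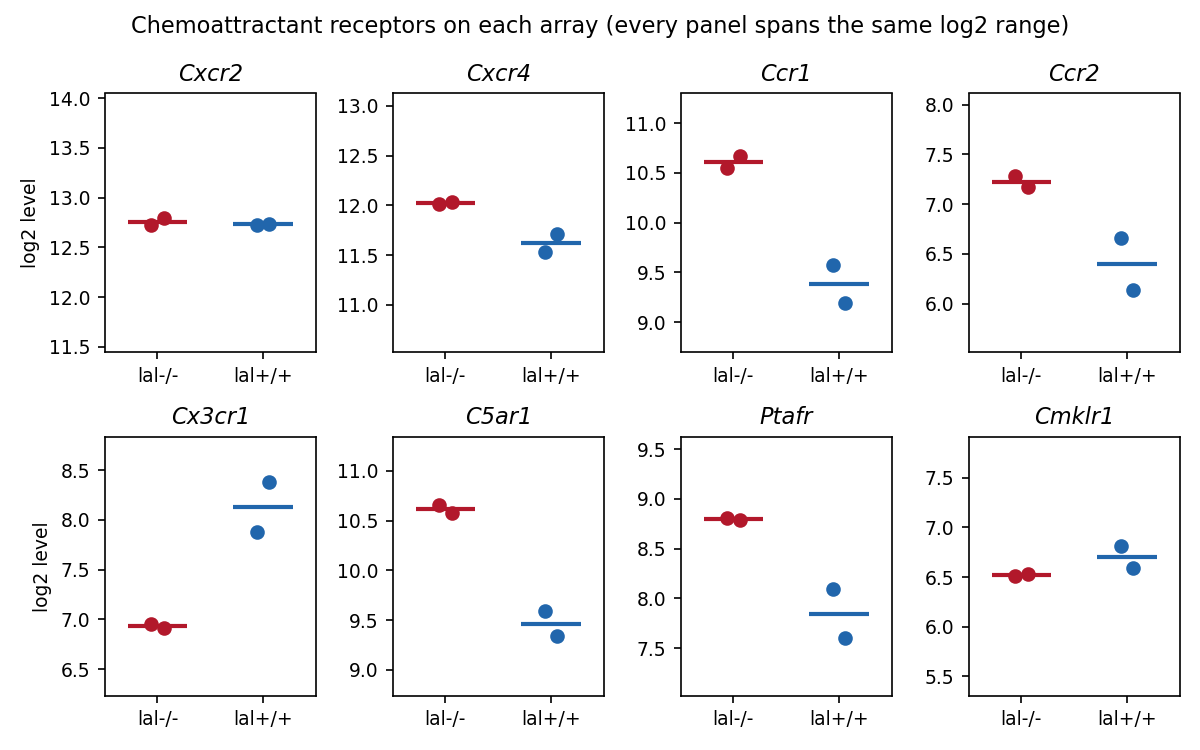
Log2 level of the 8 measured receptors on each array, with *lal-/-* left of *lal+/+* in every panel, a point for each array and a bar at the mean of the genotype. The panels span the same range, so that the gap of *Ccr1* (mean 10.61 in *lal-/-* and 9.39 in *lal+/+* cells) can be set beside *Cxcr2* (12.76 in *lal-/-* and 12.73 in *lal+/+* cells).

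The receptors of marrow release and retention, *Cxcr2* and *Cxcr4*, were not called. *Cxcr2*, the receptor of the CXCL1 and CXCL2 family, read 12.73 and 12.79 in *lal-/-* cells, against 12.73 and 12.74 in *lal+/+* cells. The log2 fold change was 0.03, with a 95% interval of -0.26 to 0.31 (standard error 0.12, limma adjusted p = 0.893). A change by a factor of 2 lies outside this interval, and smaller changes in either direction lie inside it. *Cxcr4* read 12.01 and 12.03 in *lal-/-* cells, against 11.53 and 11.72 in *lal+/+* cells. Both *lal-/-* arrays were above both *lal+/+* arrays. The log2 fold change of 0.40 (standard error 0.13, 95% interval 0.09 to 0.70) did not pass at a limma adjusted p of 0.0568. When the arrays were instead only set to equal medians, it was 0.70 with an adjusted p of 0.00312. The adjusted p was also under 0.05 as deposited (log2 fold change 0.52, adjusted p = 0.0175) and under 3 other alternatives. The fold threshold was met in none of the 15.

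Within an array, a shift of the whole scale cancels when the log2 value of *Cxcr4* is taken from that of *Cxcr2*. This difference, whose absolute size has no meaning because the probes differ, was 0.71 and 0.76 in *lal-/-* cells, against 1.19 and 1.02 in *lal+/+* cells. It was lower in *lal-/-* cells by 0.37 in the mean, so that *Cxcr4* stood higher relative to *Cxcr2* there. The exact two-sided permutation test gave p = 0.333, the smallest p that 2 arrays against 2 allow.

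Of the 162 other genes in the lists described below, those nearest to *Cxcr2* over the 4 arrays, after each gene was centred on its mean, were *Selplg*, *Rgs16* and *Flt3*. Their Euclidean distances were 0.045, 0.096 and 0.11 log2 units. *Rgs3*, *Hc* and *Gng2* were nearest to *Cxcr4*, at 0.084, 0.13 and 0.14. These distances are a description of 4 arrays. *Flt3* and *Hc* lay below the 95th percentile of olfactory receptor probe sets (6.29 in *lal-/-* and 6.79 in *lal+/+* cells), which are silent in most tissues, in both genotypes, and *Rgs16* in *lal+/+* cells, so that these values are near background.

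Of the receptors for inflammatory chemokines, *Ccr1*, which binds CCL3 and CCL5, was higher. It read 10.55 and 10.67 in *lal-/-* cells, against 9.58 and 9.20 in *lal+/+* cells, and the groups lay apart. The log2 fold change was 1.22 (standard error 0.16, limma adjusted p = 0.00158). *Ccr2*, the receptor of CCL2 on classical monocytes, read 7.28 and 7.17 in *lal-/-* cells, against 6.66 and 6.13 in *lal+/+* cells. Its log2 fold change of 0.83 (standard error 0.19) passed the adjusted p (0.0160) but not the fold. The *lal+/+* mean of 6.40 lay below the olfactory receptor percentile of 6.79, so the change of *Ccr2* may be understated.

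*Cx3cr1*, the fractalkine receptor, moved the other way. It read 6.95 and 6.92 in *lal-/-* cells, against 7.88 and 8.38 in *lal+/+* cells. The log2 fold change was -1.20 (standard error 0.18, limma adjusted p = 0.00286), and both genotypes lay above the level of olfactory receptor probe sets. With equal medians the log2 fold change was -0.91, which misses the fold threshold.

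Of the receptors for complement, lipid and chemerin, *C5ar1*, the receptor of the anaphylatoxin C5a, was higher. It read 10.66 and 10.58 in *lal-/-* cells, against 9.59 and 9.34 in *lal+/+* cells. The log2 fold change was 1.15 (standard error 0.14, limma adjusted p = 0.00109), a 2.23-fold difference. *Ptafr*, the PAF receptor, read 8.81 and 8.79 in *lal-/-* cells, against 8.09 and 7.61 in *lal+/+* cells. All *lal-/-* values again lay above all *lal+/+* values. Its log2 fold change of 0.95 (standard error 0.18) passed the adjusted p (0.00705) and fell just short of the fold threshold. *Cmklr1*, the chemerin receptor of macrophages and plasmacytoid dendritic cells, read 6.51 and 6.53 in *lal-/-* cells, against 6.81 and 6.59 in *lal+/+* cells (log2 fold change -0.18, limma adjusted p = 0.360). Its *lal+/+* mean of 6.70 lay below the olfactory receptor percentile too.

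How far the higher receptors lay above *lal+/+* cells depended on the scaling. With equal medians *Ccr1* had a log2 fold change of 1.85, *C5ar1* of 1.78 and *Ptafr* of 1.41, and *Ptafr* was then called. With the values as deposited these were 1.67, 1.60 and 1.23. Over all genes the median was 0.08 after quantile normalization, 0.12 with equal medians and -0.05 as deposited. Equal medians called 13.1% of all genes higher and 2.34% lower (15.5% in all), and the deposited values called 10.1% higher and 3.17% lower (13.3% in all).

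The array *lal+/+* replicate 1 decided the calls of *Ccr2* and *Ptafr*. Without it their log2 fold changes were 1.11 and 1.22, and 4 receptors were called higher in place of 2, while the count over all genes was 1753 in place of 1508. The lower values of *Ccr1*, *Ccr2*, *C5ar1* and *Ptafr* among *lal+/+* cells were all on replicate 2.

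**Figure D2:**
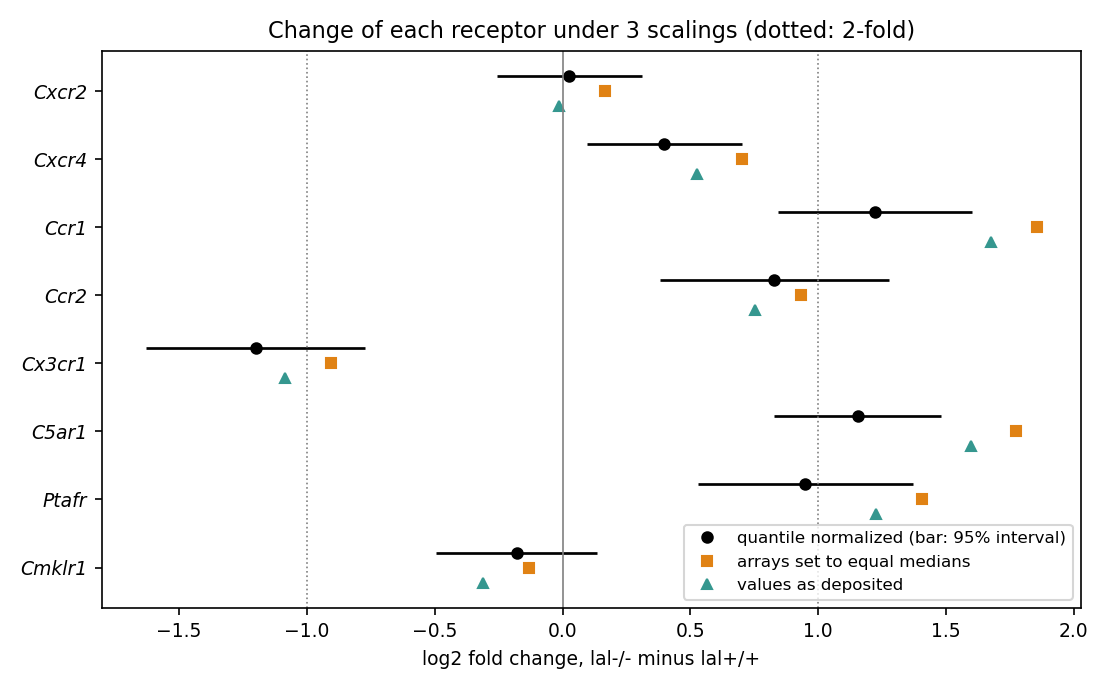
Log2 fold change of each receptor, *lal-/-* minus *lal+/+*, after quantile normalization (point with its 95% interval), with the arrays set to equal medians (square) and as deposited (triangle). *Ccr1* and *C5ar1* lie above the 2-fold line in all 3 settings, and *Cx3cr1* lies inside its line with equal medians (-0.91).

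*Ccr1* and *Ccr2* lie on chromosome 9 in a cluster of chemokine receptor genes, and no neighbour measured here was called higher. In gene order, the stretch analysed here holds *Ccr9*, *Fyco1*, *Cxcr6*, *Xcr1*, *Ccr1*, *Ccr1l1*, *Ccr3* and *Ccr2*. *Ccr3*, the eotaxin receptor known from eosinophils and located between *Ccr1* and *Ccr2*, read 6.28 and 6.15 in *lal-/-* cells, against 10.09 and 10.12 in *lal+/+* cells. This was a log2 fold change of -3.89 (standard error 0.12, limma adjusted p = 2.13e-05). The *lal-/-* mean of 6.21 lay below the 95th percentile of olfactory receptor probe sets there (6.29), so the size may be understated. *Ccr9* (-0.79, adjusted p = 0.0170) and *Cxcr6* (-0.77, adjusted p = 0.0112) passed the adjusted p but not the fold, and *Xcr1* (-0.27) and *Ccr1l1* (0.53) did not pass. *Ccr9*, *Fyco1*, *Cxcr6*, *Xcr1* and *Ccr1l1* lay below the olfactory receptor percentile in both genotypes, so that these values are near background.

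**Figure D3:**
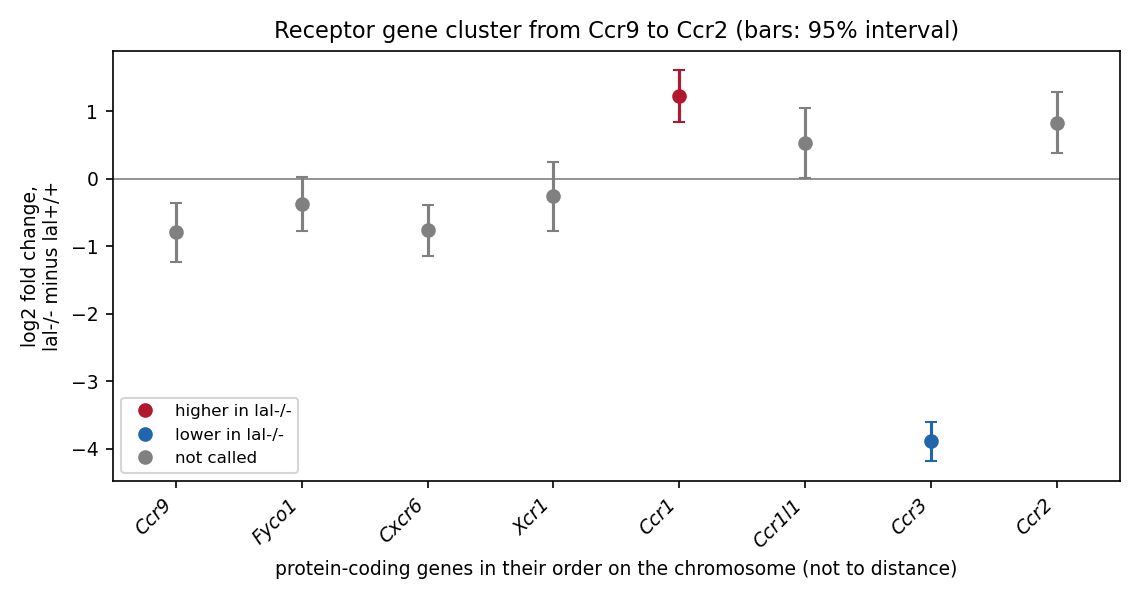
Log2 fold change, *lal-/-* minus *lal+/+*, of the protein-coding genes of the chromosome 9 receptor cluster from *Ccr9* to *Ccr2*, in their order, with 95% intervals. *Ccr1* (1.22) and *Ccr3* (-3.89), which are separated by *Ccr1l1* alone, lie on opposite sides of 0.

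Promoter sequences from RefSeq (GRCm38.p6, a C57BL/6J assembly, whereas the mice were FVB/N) are shown for these neighbours and for the receptors of release and retention. Each holds 250 bases before and 50 after the listed start, 5′ to 3′ on the gene's strand. All 10 receptor genes and *Ccr3* had an entry. Capitals mark GAGGAA, or TTCCTC where it lies on the other strand, the core bound by the myeloid factor PU.1. *Ccr1* is at chr9:123968643-123968942 (minus strand), *Ccr3* at chr9:124021721-124022020 (plus strand), *Cxcr2* at chr1:74153744-74154043 (plus strand) and *Cxcr4* at chr1:128592250-128592549 (minus strand).
Ccr1: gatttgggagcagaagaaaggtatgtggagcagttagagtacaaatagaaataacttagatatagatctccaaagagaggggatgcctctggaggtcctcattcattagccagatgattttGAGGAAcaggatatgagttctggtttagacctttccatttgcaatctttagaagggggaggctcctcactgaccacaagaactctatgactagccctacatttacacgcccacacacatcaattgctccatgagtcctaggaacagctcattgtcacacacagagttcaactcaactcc
Ccr3: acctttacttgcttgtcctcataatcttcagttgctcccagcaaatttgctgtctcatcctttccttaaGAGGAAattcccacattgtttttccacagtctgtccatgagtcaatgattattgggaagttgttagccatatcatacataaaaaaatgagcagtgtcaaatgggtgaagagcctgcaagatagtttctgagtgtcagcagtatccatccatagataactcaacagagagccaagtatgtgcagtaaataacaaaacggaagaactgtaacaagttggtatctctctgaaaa
Cxcr2: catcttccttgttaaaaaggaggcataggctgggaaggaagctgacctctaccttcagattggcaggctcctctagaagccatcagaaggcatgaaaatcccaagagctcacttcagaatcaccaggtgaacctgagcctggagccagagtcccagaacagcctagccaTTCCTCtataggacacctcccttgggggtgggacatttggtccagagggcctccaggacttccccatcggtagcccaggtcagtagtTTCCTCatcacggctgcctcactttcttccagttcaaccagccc
Cxcr4: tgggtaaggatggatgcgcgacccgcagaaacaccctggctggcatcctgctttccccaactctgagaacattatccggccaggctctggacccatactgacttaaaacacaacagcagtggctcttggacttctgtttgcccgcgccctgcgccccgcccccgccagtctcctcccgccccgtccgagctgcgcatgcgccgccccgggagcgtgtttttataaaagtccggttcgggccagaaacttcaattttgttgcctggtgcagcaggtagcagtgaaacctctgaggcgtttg
The core stood in the promoters of both neighbours that moved in opposite directions. It occurred in 5 of the 10 receptor promoters (*Cxcr2*, *Ccr1*, *Fpr2*, *Ptafr* and *Cmklr1*) and in 28.3% of the 32851 promoters of that length. The core TTNNGCAA of C/EBP factors was in 0 of the 10 and in 10.8% of all, on either strand. A match describes these letters and is not a binding site, and 300 bases do not cover a gene's control regions.

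Other chemoattractant receptors were lower more often than higher. Of 20 measured, *Ltb4r1* was called higher and 5 were called lower, against 7.56% and 3.24% of all genes. The median log2 fold change was -0.33. *Ltb4r1*, the leukotriene B4 receptor of neutrophils, read 9.67 and 9.74 in *lal-/-* cells, against 7.49 and 8.23 in *lal+/+* cells (log2 fold change 1.84, standard error 0.23, limma adjusted p = 0.00140). The lower receptors besides *Ccr3* were *Ackr3*, a scavenger of CXCL12 (-1.73), *C3ar1*, the C3a receptor (-1.58), and the lymphoid homing receptors *Cxcr5* (-1.58) and *Ccr7* (-1.56). *Ackr3* and *C3ar1* lay below the olfactory receptor percentile in *lal-/-* cells, so that their changes may be understated. *Cxcr5* lay below it in both genotypes, as 9 of the 20 did.

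Among 21 genes of ligands, *Camp* and *Ppbp* were called higher and *Ccl5* lower, counts of 2 and 1 that are near the 7.56% and 3.24% of all genes. The median was 0.15 on the log2 scale. *Camp*, the cathelicidin gene whose peptide activates FPR2, read 13.62 and 13.57 in *lal-/-* cells, against 12.37 and 12.29 in *lal+/+* cells (log2 fold change 1.26, limma adjusted p = 4.56e-04). *Ppbp*, which encodes the precursor of CXCL7, was higher by 1.22, but by 0.92 without *lal+/+* replicate 2, which is under the fold threshold. Its *lal+/+* mean of 6.11 lay below the olfactory receptor percentile, so that the change may be understated. *Ccl5*, a ligand of CCR1, was lower (-1.51, adjusted p = 3.04e-04). The CXCR2 ligands *Cxcl1* (0.14) and *Cxcl2* (0.15) and the CXCR4 ligand *Cxcl12* (0.49, adjusted p = 0.0518) were not called. *Cxcl12* averaged 6.05 in *lal-/-* cells and 5.56 in *lal+/+* cells, below the olfactory receptor percentile in both. *Anxa1*, of the formyl peptide receptor ligand annexin A1, had 0.91 (adjusted p = 0.00205), under the fold threshold.

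Of 8 genes of PAF synthesis and breakdown, 0 were called higher and 1 lower, against 7.56% and 3.24% of all genes. The lower one, *Pla2g7*, encodes the PAF acetylhydrolase of plasma. It read 10.35 and 10.44 in *lal-/-* cells, against 11.66 and 11.64 in *lal+/+* cells (log2 fold change -1.25, limma adjusted p = 4.77e-04). It was not called with equal medians (-0.75) or as deposited (-0.93). *Lpcat2*, the acetyltransferase that makes PAF in stimulated leukocytes, had 0.12 and was not called.

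Of 12 measured genes that shut the receptors off, *Rgs18*, *Arrb2*, *Rgs19* and *Grk6* were called higher and *Rgs1* lower. *Grk2* and *Rgs10* of the same list have no value here, and the paper lists *Rgs10* among its decreased genes. Of all genes 7.56% were called higher and 3.24% lower. The median over the 12 was 0.33 on the log2 scale. *Arrb2*, of β-arrestin 2, which uncouples phosphorylated receptors and carries them inward, read 11.16 and 11.09 in *lal-/-* cells, against 9.07 and 8.76 in *lal+/+* cells. This was a log2 fold change of 2.21 (standard error 0.15, limma adjusted p = 1.29e-04). *Grk6*, a kinase that phosphorylates activated receptors, among them CXCR4 and CXCR2, was higher by 1.24 (adjusted p = 0.00152). *Rgs18* (2.90) and *Rgs19* (1.38), which speed the hydrolysis of GTP on Gα subunits, were higher, and *Rgs1*, known from B lymphocytes, was lower (-1.42). *Rgs2* had -0.54, under the fold threshold, and *Grk5* (-0.03) and *Grk3* (-0.11) did not pass.

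Of 20 genes of signal transduction below the receptors, 2 were called higher and 0 lower, against 7.56% and 3.24% of all genes, and 18 had a positive log2 fold change (median 0.52). With no fold threshold, by the limma adjusted p alone, 12 were higher and *Gng10* (-0.57) was lower, against 19.8% and 9.85% of all genes. *Gng10* had 0.09 with equal medians and -0.09 as deposited. *Gnai2*, the main inhibitory Gα subunit of leukocytes, read 12.62 and 12.61 in *lal-/-* cells, against 11.42 and 11.47 in *lal+/+* cells (log2 fold change 1.17, limma adjusted p = 5.78e-04). *Rac2*, a small GTPase of neutrophil migration, was higher by 1.26. *Gnb1* (0.93), *Gng12* (0.95) and *Pik3cg*, of the PI3-kinase activated by Gβγ (0.79), passed the adjusted p only. The count of higher genes was 8 with equal medians and 6 as deposited, against 13.1% and 10.1% of all genes. Both counts then included *Gnb1* and *Gng12*.

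Partners of marrow retention and release moved in both directions. Of 13 measured, 3 were called higher and 4 lower, against 7.56% and 3.24% of all genes. The higher genes were the proteases *Ctsg* (3.78), *Elane* (2.20) and *Mmp9* (2.07), which are known to cleave CXCL12 or CXCR4. *Ctsg* and *Elane* lay below the olfactory receptor percentile in *lal+/+* cells, and *Dpp4* in *lal-/-* cells, so that their changes may be understated. Lower was *Itga4*, of the integrin that binds VCAM-1, which read 8.67 and 8.60 in *lal-/-* cells, against 10.48 and 10.45 in *lal+/+* cells (log2 fold change -1.84, limma adjusted p = 1.23e-04). *Vcam1* itself (-3.73), *Dpp4*, a peptidase that inactivates CXCL12 (-2.23), and *Csf3r*, the receptor of the mobilizing factor G-CSF (-1.91), were also lower. *Itgb1*, the partner chain of *Itga4*, had -0.80 (adjusted p = 0.00286), and -0.19 with equal medians.

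**Figure D4:**
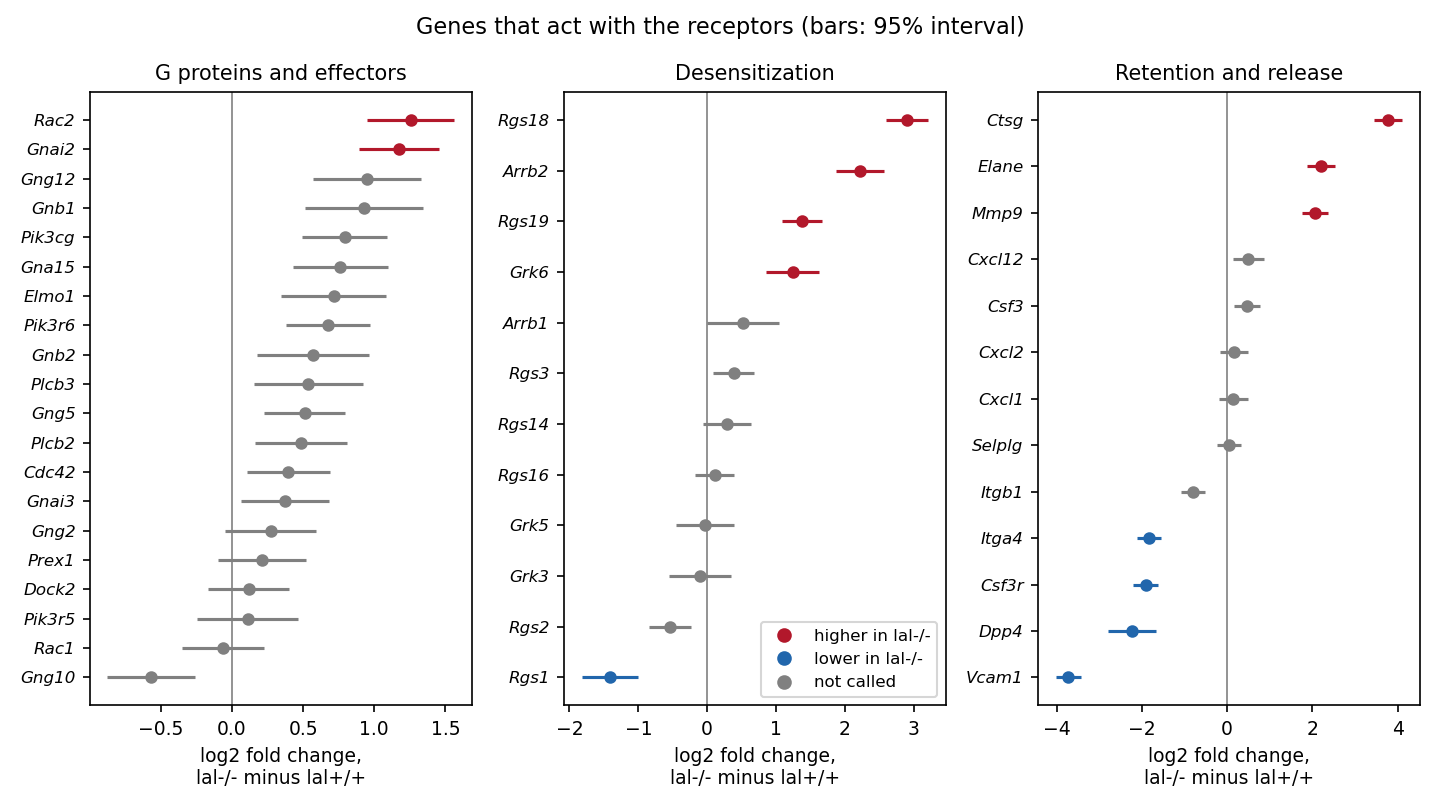
Log2 fold change, *lal-/-* minus *lal+/+*, with 95% intervals, of genes of signal transduction, desensitization, and retention and release. Signal transduction genes lie mostly between 0 and 1, while *Rgs18* (2.90), *Arrb2* (2.21) and *Ctsg* (3.78) lie far to the right and *Vcam1* (-3.73) far to the left.

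Markers of other cells moved with the genotype. The counts of called markers, here and in the next paragraph, stand against 7.56% of all genes called higher and 3.24% called lower. A lower signal from fewer cells of a type and from less RNA per cell cannot be told apart in these preparations. Markers of early granulocyte precursors were higher in 5 of 7 and lower in 1, *Ctsc* (-1.11, and -0.54 with equal medians, where it was not called), with a mean log2 level of 8.56 and 8.52 in *lal-/-* cells, against 6.42 and 6.33 in *lal+/+* cells. The 5 higher ones lay below the olfactory receptor percentile in *lal+/+* cells, so that their changes may be understated. Markers of late precursors were higher in 8 of 10 (12.45 and 12.43 in *lal-/-* cells, against 10.79 and 10.72 in *lal+/+* cells). Of 10 markers of mature neutrophils 4 were higher and 2 lower (11.34 and 11.39 in *lal-/-*, against 11.30 and 11.19 in *lal+/+*). That list shares *Csf3r* and *Mmp9* with the partners of retention and release, and the macrophage list shares *Vcam1*.

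Macrophage markers were lower in 9 of 11, with a mean log2 level of 6.34 and 6.46 in *lal-/-* cells, against 8.90 and 8.70 in *lal+/+* cells, and *Mrc1*, *Spic*, *C1qb*, *C1qc*, *Mertk* and *Cd163* lay below the olfactory receptor percentile in *lal-/-* cells, and *Cd163* in *lal+/+* cells too. Monocyte markers were lower in 3 of 11 and higher in 1, with a mean of 7.59 and 7.68 in *lal-/-* cells, against 8.20 and 8.13 in *lal+/+* cells. The higher one was *F13a1* (1.98). Its *lal+/+* mean lay below the olfactory receptor percentile, so that the change may be understated. *Csf1r* (-1.43), *Ly86* (-3.58) and *Ms4a4c* (-1.54) were the lower monocyte markers, and *Csf1r* was not called with equal medians (-0.93). The other 7 were not called, and the median of the 11 was -0.19. Among them are the markers of patrolling monocytes, *Nr4a1* (-0.19), *Ace* (0.12) and *Treml4* (-0.96, limma adjusted p = 0.00400, under the fold threshold). The part of monocytes and macrophages in the change of *Cx3cr1* was not tested. B cell markers were lower in all 7 measured (6.04 and 5.94 in *lal-/-* cells, against 10.04 and 9.84 in *lal+/+* cells), and 3 of them lay below the olfactory receptor percentile in *lal-/-* cells. Of 9 markers of T and natural killer cells 4 were lower and *Cd3d* was higher (2.42). Their mean was 7.04 and 7.05 in *lal-/-* cells, against 7.84 and 7.80 in *lal+/+* cells. *Ncr1* (-0.12) and *Klrb1c* (0.21), of natural killer cells, lay below the olfactory receptor percentile in both genotypes. In the same list *Gzma* was called lower (-2.31) and lay below that percentile in *lal-/-* cells. *Nkg7* had 0.87 (limma adjusted p = 0.00472), under the fold threshold. Dendritic cell markers were lower in 1 of 8, *Itgax* (-1.98), with a mean of 5.98 and 5.93 in *lal-/-* cells, against 6.43 and 6.53 in *lal+/+* cells. Of these 8, 5 lay below the olfactory receptor percentile in both genotypes, so that the means are near background. Markers of eosinophils, basophils and mast cells, *Ccr3* among them, averaged 6.68 and 6.68 in *lal-/-* cells, against 6.81 and 6.72 in *lal+/+* cells, with 2 higher and *Ccr3* lower of 8. The part of all these cells in the receptor levels was not tested.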

How the data were processed

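RNA of Ly6G+ bone marrow cells was measured on Mouse Gene 1.0 ST arrays, 2 for each genotype. In Partek Genomics Suite the authors applied RMA to the scans, and the deposited values are log2 expression values of 35557 probe sets. The labels also name GCOS 1.1. The labels and the methods differ in the amplification reagents they name. The precision is limited by the number of arrays.

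The gene table of the platform lists 23410 probe sets, of which 21789 name 1 gene and 21698 were matched to current symbols. For genes with several probe sets the one of highest mean was used. The 4 columns were quantile normalized, and genotype was fitted with limma 3.58.1 in R 4.3.3 (4.83 prior and 2 residual degrees of freedom). The Benjamini-Hochberg adjustment ran over these 21789 probe sets. The procedure was tested on simulated data. The methods' tissue term has no counterpart in 1 tissue. Replicate numbers do not pair the arrays by any label.

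The receptors, the gene lists and the tests were chosen with earlier results of these data known. Named were all receptors, up to 4 called genes of each list and direction, further genes of the ligand, desensitization and retention lists, the genes nearest to *Cxcr2* and *Cxcr4*, and *Lipa*. The neighbours on chromosome 9, the macrophage genes near background, uncalled marker genes, *Itgam*, *Lpcat2*, uncalled genes of signal transduction and the genes under other observations were chosen after their values were seen. The alternatives were other scalings, filters, thresholds and variance models, a replicate block, the mean of probe sets and each array left out. Gene symbols, gene order and promoters came from RefSeq.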

Additional observations from a re-analysis of the deposited data

How the results depend on the processing

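Of 120 receptor changes recomputed under 15 alternatives, 108 kept their direction and their side of the threshold. Much of this count is fixed by construction. The filters, thresholds, variance models, replicate blocks and the mean of probe sets leave each receptor's log2 fold change as it was. Direction could turn only under the other scalings and with an array left out. With equal medians, *Cx3cr1* was -0.91 and no longer called, *Ptafr* was 1.41 and called, 0 receptors were called lower, and 2620 genes were called higher. *Ptafr* was also called as deposited (1.23). *Cxcr2* turned to -0.014 as deposited and to -0.0045 without *lal-/-* replicate 2. *Cxcr4* was not called under any of the 15. Its limma adjusted p was 0.0568, and under 0.05 with equal medians (0.00312), as deposited (0.0175), with the brighter probe sets only (0.0372), with an intensity trend and robust variances (0.00132) and without *lal+/+* replicate 2 (0.0477). Under the others it was between 0.0532 and 0.212. The *Cxcr2* minus *Cxcr4* difference between genotypes was -0.54 with equal medians and as deposited, and -0.43 to -0.27 with an array left out. With no fold threshold *Ccr2* (0.83) and *Ptafr* (0.95) were called, making 4 receptors higher, with 3938 genes higher and 1963 lower.

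An ordinary linear model of genotype, without moderated variances and with 2 residual degrees of freedom, called 0 receptors and 0 genes in either direction. *Ccr1* (1.22, adjusted p = 0.125), *C5ar1* (1.15, adjusted p = 0.0952) and *Cx3cr1* (-1.20, adjusted p = 0.156) then missed the threshold, while 4 receptors and 5691 genes had an unadjusted p under 0.05.

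With an array left out, the receptors called higher were 2 to 4 and those called lower 1 in each case, with 1419 to 1753 of all genes higher and 631 to 734 lower. *Ccr2* ranged from 0.59 to 1.11, *Ptafr* from 0.73 to 1.22, and *Cxcr2* from -0.0045 to 0.058. A group of 1 array is then assumed to vary like the other group. Of 450 list counts, 394 stayed within 1.5 times their value. Much of this count too is fixed by construction. A count of 0 that stayed 0 is included, and many of the alternatives leave the log2 fold changes as they were. In the signal transduction list 2 higher genes became 8 with equal medians, 6 as deposited and 12 with no fold threshold. In the PAF list 0 higher and 1 lower became 2 and 0 with equal medians and as deposited. With no fold threshold the lower genes among other receptors were 9 in place of 5, against 9.85% of all genes lower.

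The difference of replicate 1 minus replicate 2 was only weakly, and negatively, correlated between the genotypes (r = -0.18 over 21789 probe sets). With the replicate number as a block, 2 receptors were called higher and 1 lower, with 1508 and 646 genes, and the block crossed after seeing the data gave the same counts. In this design a block leaves every log2 fold change as it was, and the fold alone had decided the calls. Equal counts therefore say little about pairing.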

Other observations

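*Ccr3*, the eotaxin receptor known from eosinophils, was lower by 3.89 on the log2 scale. Of the 7 other genes in the list of eosinophils, basophils and mast cells 2 were called higher and 0 lower (limma). Among all genes these shares were 7.56% and 3.24%. *Il5ra* was called lower with equal medians (-1.03), as deposited (-1.21), and without *lal-/-* replicate 2 (-1.05) or *lal+/+* replicate 2 (-1.19). *Prg2*, of the eosinophil major basic protein, was higher (log2 fold change 1.44, limma adjusted p = 4.05e-04), and so was *Mcpt8*, a basophil protease (1.53, adjusted p = 9.47e-04). *Prg2* read 10.01 and 9.85 in *lal-/-* cells, against 8.40 and 8.57 in *lal+/+* cells. *Siglecf*, a lectin of eosinophils, had -0.51 (adjusted p = 0.0185) and *Il5ra*, the interleukin 5 receptor, -0.97 (adjusted p = 0.00490), both under the fold threshold. *Epx*, of eosinophil peroxidase, and *Il5ra* lay below the olfactory receptor percentile in both genotypes, and *Mcpt8* did in *lal+/+* cells.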
